A study of Mus musculus with 7 samples.

Results

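The 38 genes described here are a set of cell-cycle genes, 24 that peak in G2 and mitosis and 14 that act in S phase, followed across 6 cell classes of a mouse brain tumour. They were chosen by symbol, not by their values, and all 38 were found among the 32285 genes of the count tables. On the GENCODE annotation of mm10 they lie on 16 chromosomes. Cells of whole tumours were sequenced in droplets, as single-cell RNA, in 7 libraries, of which 1 was untreated (UT), 2 had received the isotype antibody IgG2b (IgG), 2 had received BP, 1 BPI and 1 a CD40 agonist (CD40). After filtering, 48588 cells were kept.

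All tumours were grown from NSCG-mCherry, a glioma line labelled EGFRvIII+ and Arf/Ink4a-/-, in wild-type C57BL/6 mice aged 7 to 10 weeks, and were collected at about day 14. Animals of the IgG, BP and BPI groups were treated from day 6 or 7 after implantation, for 3 rounds. BP joined 5 mg/kg of B20, an antibody against VEGF, with 10 mg/kg of anti-PD-L1 every 3 days. BPI added IPI-145 (duvelisib, which blocks the delta and gamma forms of PI3K) once a day by mouth at 10 mg/kg, and IgG animals received 10 mg/kg of isotype antibody. The CD40 group received 2 doses of 100 µg, 5 days apart, and the labels do not settle whether a dendritic cell vaccine was given with it. Each library pools at least 2 mice of a single line, so the library is the replicate, variation between mice was not measured, and p-values reflect the spread between libraries, which may be technical. The UT, BPI and CD40 groups have 1 library each, and comparisons that use them have no replicate on that side.

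A dividing cell passes through G1, copies its DNA in S phase, and separates the copies in mitosis after a gap called G2. E2F factors switch on S-phase genes such as the MCM helicase, while mitotic genes such as cyclin B are held off until G2 by repressor complexes that read the CHR element and are then raised with the help of NF-Y at CCAAT boxes. Activated T cells divide quickly, resident microglia renew themselves slowly, and macrophages drawn from blood monocytes can divide in tissue.

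The promoters of the members were searched for these 3 motifs in the 250 bases before the annotated start, on both strands. RefSeq promoters (GRCm38.p6) were matched for 31 members, 20 mitotic and 11 of S phase, out of 32851 promoters in all, and the other 7 (Ccna2, Aurkb, Kif20a, Tpx2, Mcm4, Gins2 and Ccne2) had no entry. CCAAT occurred in 18 of the 20 mitotic and 8 of the 11 S-phase promoters, against 33.9% of all promoters. The CHR element, searched as TTTGAA or TTTAAA, occurred in 13 mitotic and 3 S-phase promoters, against 25.2%. The E2F motif, searched as TTTCCCGC, TTTGGCGC, TTTCGCGC or TTTGCCGC, occurred in 1 mitotic and 4 S-phase promoters, against 1.86%. CCAAT and CHR together occurred in 12 mitotic and 2 S-phase promoters, against 8.78%. These matches describe letters in a window and not binding.

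The promoters of 6 members are shown, 4 of mitotic members and 2 of S-phase members, because they hold both layouts; capitals mark the motif matches, and a match on the other strand reads as its reverse complement. Cdk1 (chr10:69352913-69353162, minus strand) holds 3 CCAAT, 2 CHR and 1 E2F match. Ccnb1 (chr13:100786487-100786736, minus strand) holds 2 CCAAT and 1 CHR match. Top2a (chr11:99024190-99024439, minus strand) and Ube2c (chr2:164769679-164769928, plus strand) each hold 6 CCAAT matches, with 2 and 1 CHR matches. Mcm6 (chr1:128359706-128359955, minus strand) holds 3 E2F and 2 CCAAT matches, and Mcm5 (chr8:75109259-75109508, plus strand) holds 2 E2F, 2 CCAAT and 1 CHR match. E2F matches on opposite strands overlap within 1 run of capitals in both MCM promoters.
Cdk1: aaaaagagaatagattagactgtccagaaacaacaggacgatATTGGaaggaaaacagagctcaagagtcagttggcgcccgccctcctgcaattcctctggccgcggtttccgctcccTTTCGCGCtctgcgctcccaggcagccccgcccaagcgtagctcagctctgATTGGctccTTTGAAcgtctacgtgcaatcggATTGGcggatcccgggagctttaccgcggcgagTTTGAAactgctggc
Ccnb1: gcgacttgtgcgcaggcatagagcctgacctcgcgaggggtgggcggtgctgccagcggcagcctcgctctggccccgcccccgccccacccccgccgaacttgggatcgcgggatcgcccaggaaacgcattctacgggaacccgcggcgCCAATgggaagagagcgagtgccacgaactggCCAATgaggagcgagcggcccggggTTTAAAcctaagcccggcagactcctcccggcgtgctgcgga
Top2a: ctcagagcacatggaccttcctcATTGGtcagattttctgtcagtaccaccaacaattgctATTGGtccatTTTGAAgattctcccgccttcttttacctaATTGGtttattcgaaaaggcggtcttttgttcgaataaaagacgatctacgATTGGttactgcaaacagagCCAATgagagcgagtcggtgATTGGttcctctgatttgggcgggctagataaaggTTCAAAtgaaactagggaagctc
Ube2c: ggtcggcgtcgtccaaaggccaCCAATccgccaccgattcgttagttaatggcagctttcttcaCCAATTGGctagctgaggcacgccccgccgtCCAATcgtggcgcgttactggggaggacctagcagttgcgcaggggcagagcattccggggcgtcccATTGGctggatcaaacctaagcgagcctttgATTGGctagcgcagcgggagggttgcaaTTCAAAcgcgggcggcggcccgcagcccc
Mcm6: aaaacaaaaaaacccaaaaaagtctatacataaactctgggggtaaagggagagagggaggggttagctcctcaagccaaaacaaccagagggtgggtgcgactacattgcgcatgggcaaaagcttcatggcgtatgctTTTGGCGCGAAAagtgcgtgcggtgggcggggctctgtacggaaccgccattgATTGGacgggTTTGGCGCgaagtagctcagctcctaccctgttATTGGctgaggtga
Mcm5: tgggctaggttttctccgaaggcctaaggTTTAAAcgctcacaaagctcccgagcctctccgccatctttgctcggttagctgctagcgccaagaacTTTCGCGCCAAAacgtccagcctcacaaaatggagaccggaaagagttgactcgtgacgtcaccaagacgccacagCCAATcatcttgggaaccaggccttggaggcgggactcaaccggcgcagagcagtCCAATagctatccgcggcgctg

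Cells were classed from marker genes after clustering without the members and other cell-cycle genes, and names below stand for cells that carry the markers of that type. The tumour class held 32402 cells, CD8 T cells 1087, Foxp3 T cells 265, natural killer (NK) cells 1126, macrophages 3410 and microglia 2324. The class called macrophages was named from a joint list of macrophage and monocyte markers, among them Ccr2, Ly6c2 and Lyz2. Monocytes were not set apart in it. Immune classes were small in the IgG libraries, with 12 and 13 CD8 T cells, 2 and 1 Foxp3 T cells, 43 and 16 NK cells and 73 and 57 macrophages in IgG 1 and IgG 2. Every list of defining markers was detected in its own class with at most 1 gene missing, a low bar since the same lists named the classes. The tumour cells of 3 libraries stood apart: in IgG 1, BP 2 and BPI the 12 tumour markers summed to 359 to 450 CPM (a gene's UMIs per 1000000 UMIs of the class), against 1177 to 1466 in the other 4. Olig1 was at 0.10 to 0.75 CPM in those 3 and at 63.6 to 305 in the others. The clusters of those 3 libraries raised 3 of the 12 markers. The label of a single line is thus matched by at least 2 marker patterns, which cross the IgG and BP groups. Egfr was at 60.2 to 227 CPM in all 7. Cdkn2a, the locus of Arf and Ink4a, gave 155 to 198 CPM in tumour cells of the libraries labelled Arf/Ink4a-/-; where its tags lie relative to the deleted part was not examined here. Libraries held 68997476 to 186793886 UMIs, with a median of 8583 to 17434 per kept cell, and no pair of libraries shared more than 23 barcodes of kept cells or more than 0.320% of the smaller library.

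A cell was counted as cycling when it held 2 or more UMIs of the 24 mitotic members after every cell was thinned to 1000 UMIs, which removes differences in depth. Intervals are exact 95% binomial intervals; where no cell was cycling, the share allowed is 3 cells of the total. Both cover counting error only. In tumour cells the cycling share was 47.2% in UT, 72.7% and 61.1% in the IgG libraries, 52.1% and 65.4% in the BP libraries, 59.5% in BPI and 61.8% in CD40. IgG 1 was the highest (71.3 to 74.0) and UT the lowest (45.3 to 49.2), and IgG and BP overlapped. Without thinning the share was 95.7 to 99.5%.

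CD8 T cells had the next highest mean over libraries among the classes measured in all 7, though not in every library: in UT they were below microglia, and in IgG 2 below macrophages and microglia. Their share was 24.9% of 497 cells in BP 1 (21.2 to 29.0), 17.4% of 115 in BP 2 (10.96 to 25.6), 22.4% of 344 in BPI (18.1 to 27.2), 18.9% of 53 in CD40 (9.44 to 32.0) and 13.2% of 53 in UT (5.48 to 25.3). In IgG 1 it was 2 of 12 cells and in IgG 2 it was 0 of 13, which allows a share of up to 23.1%. Foxp3 T cells could be measured in BP 1 and UT. Their share was 20.3% of 197 cells in BP 1 (14.9 to 26.6) and 21.9% of 32 in UT (9.28 to 40.0). BPI and CD40 held 0 cycling of 12 cells each, which allows up to 25%. The BPI zero depended on the settings: 5 of 32 cells were cycling with stricter T cell gates and 5 of 17 with no doublets removed. CD40 stayed at 0 in both, and had 1 of 12 with cell-cycle genes kept in clustering. In BP 1, the one library with many of both, the intervals of the CD8 and Foxp3 T cell shares overlapped.

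NK cells were rarely cycling, at 5.56% in UT, 9.30% and 0 of 16 cells in IgG, 5.00% and 8% in BP, 7.69% in BPI and 3.17% in CD40. Macrophages were at 3.64% in UT, 6.85% and 17.5% in IgG, 5.87% and 3.93% in BP, 2.26% in BPI and 12.3% in CD40. Microglia were at 16.7% in UT, 16.1% and 6.49% in IgG, 16.7% and 5.63% in BP, 7.29% in BPI and 6.35% in CD40. The highest macrophage shares were in IgG 2 (8.75 to 29.9, 57 cells) and CD40 (7.59 to 18.6, 154 cells).

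Plasmacytoid dendritic cells, a type that scarcely divides once mature, give a reference for stray UMIs. Their share in BP 1 was 0.985% (2 of 203 cells, 0.12 to 3.51), below the 5.87% of macrophages there (4.82 to 7.06), at median depths before thinning of 9352 UMIs for the plasmacytoid cells and 8159 for the macrophages of that library. Without thinning the shares there were 20.2% and 49.1%. In BPI the reference was 1 of 35 cells (2.86%, 0.0723 to 14.9), and the macrophage share of 2.26% was not above it. In BP 2 it was 4 of 18 cells (6.41 to 47.6), and macrophages at 3.93%, microglia at 5.63%, NK cells at 8% and CD8 T cells at 17.4% were not above its share of 22.2%. The reference was 0 of 35 cells in UT, which allows up to 8.57%, and it held under 10 cells in IgG and CD40.

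Tumour cells had a larger cycling share than CD8 T cells, NK cells, macrophages and microglia in 7 of 7 libraries. The mean within-library differences were 43.8 ± 12.1 percentage points to CD8 T cells (SD, n = 7), 54.4 ± 7.90 to NK cells, 52.5 ± 9.02 to macrophages and 49.2 ± 11.4 to microglia. Each had p = 0.0156 in a two-sided exact sign-flip permutation test, the smallest 7 libraries allow, and an adjusted p of 0.0586 over 15 class pairs. CD8 T cells exceeded NK cells in 6 libraries and tied at 0 in IgG 2, by 10.7 ± 6.62 points (exact permutation p = 0.0313, adjusted p = 0.0938), a difference that turned to -1.44 points when 1 mitotic UMI was enough. No pair of 15 passed an adjusted p of 0.05, and 5 had an unadjusted p below it. When 2 or more UMIs of all 38 members were asked for, 6 pairs passed, each of these 5 among them with an adjusted p of 0.0391.

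**Figure D1:**
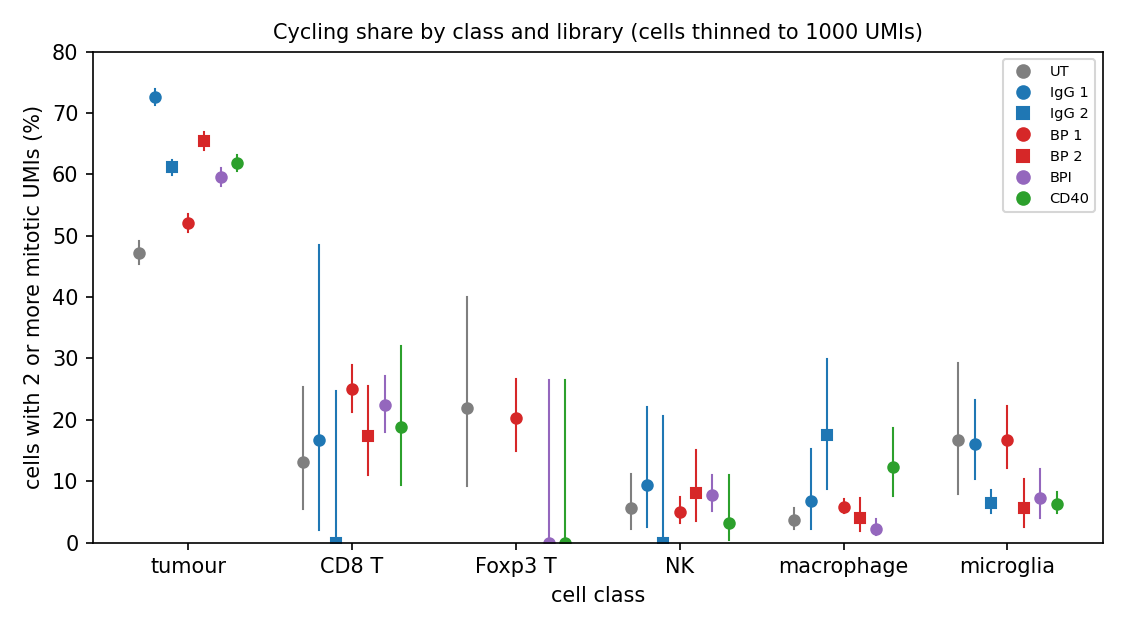
Share of cells with 2 or more UMIs of the 24 mitotic members (vertical axis, percent; cells thinned to 1000 UMIs) for each class and library with 10 or more cells; points are libraries, coloured by group, and bars are exact 95% binomial intervals. Tumour cells lie between 47.2% and 72.7%, above every other class shown in each library.

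S-phase members were followed with the same count, 2 or more of their 14 genes' UMIs in 1000. In tumour cells this S share was nearly level, at 54.0% in UT, 46.6% and 51.1% in IgG, 51.6% and 47.5% in BP, 47.7% in BPI and 51.6% in CD40. The lowest and highest libraries were 47.2% and 72.7% for the mitotic share and 46.6% and 54.0% for the S share, and UT was lowest for the first and highest for the second. Cells that met both counts made up 22.3 to 30.4% of tumour cells. Among CD8 T cells the 5 libraries with 53 or more cells had S shares of 11.3 to 23.3% and both counts in 9.43 to 12.3%. NK cells had S shares of 3.85 to 10.3% and met both counts in at most 2.33%, macrophages 2.78 to 9.09% and at most 7.02%, and microglia 3.13 to 11.1% and at most 5.56%.

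The balance of S-phase to mitotic members was taken as the log2 ratio of their summed UMIs, each plus 0.5. Its zero is set by the genes and the sizes of the 2 lists, so only differences between classes or libraries are read. Tumour cells were at -0.56 in UT, -1.26 and -1.18 in IgG, -0.84 and -1.09 in BP, -0.87 in BPI and -1.23 in CD40. NK cells were at 0.31 in UT, -0.37 and 0.54 in IgG, -0.15 and 0.23 in BP, -0.74 in BPI and -0.55 in CD40. Macrophages ranged from -1.41 in IgG 2 to 0.18 in BPI, and microglia from -1.55 in BP 1 to -0.15 in BP 2. CD8 T cells in the 5 libraries with 53 or more cells were at -0.60 to -1.39; the 2 IgG values, -2.46 and 3.55, rest on 158 and 69 UMIs.

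Tumour cells were below NK cells in this balance in 7 of 7 libraries, by 0.90 ± 0.51 (SD) on the log2 scale (exact sign-flip permutation p = 0.0156, adjusted p = 0.234). They were below macrophages in 6 of 7, by 0.52 ± 0.45 (exact permutation p = 0.0313, adjusted p = 0.234). No pair of 15 passed an adjusted p of 0.05, and 2 had an unadjusted p below it.

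**Figure D2:**
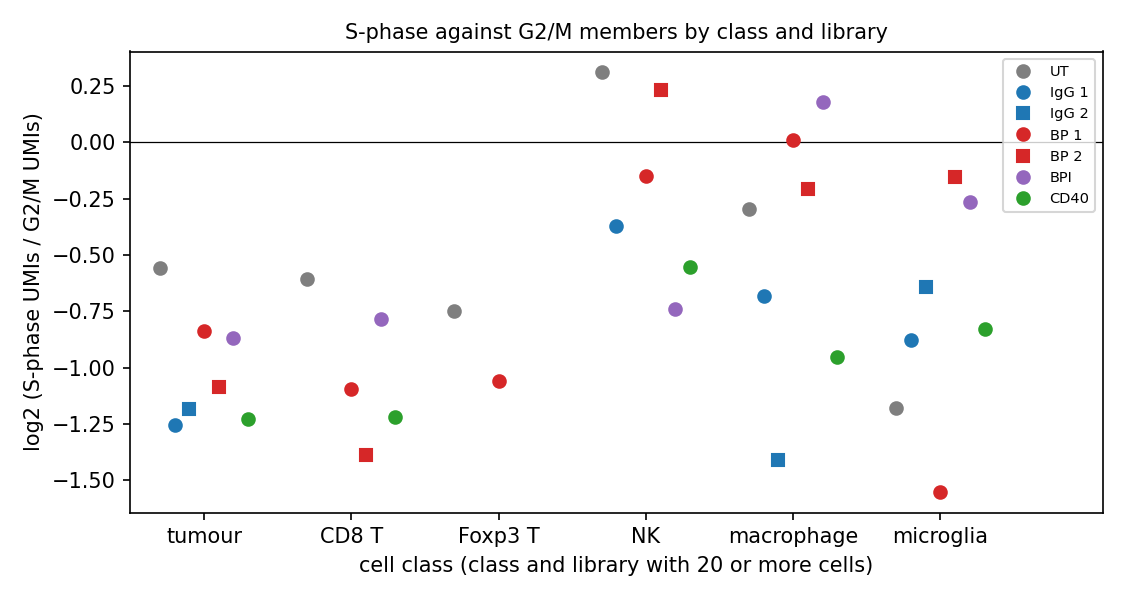
Log2 ratio of summed S-phase to summed mitotic UMIs (vertical axis) for each class and library with 20 or more cells; each point is 1 library, coloured by group, and the line marks equal sums of the 14 and 24 genes. Tumour points lie from -1.26 to -0.56, and lie below the NK point of the same library in each library shown.

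Single members were also compared between classes, in classes with 20 or more cells of a library. Against macrophages, 37 of 38 members were higher in tumour cells in all 7 libraries, and Ccna2 was the exception. Against microglia 37 were, all but Ccnb2. Against NK cells 37 were in all 6 libraries, all but Cenpa. Foxp3 T cells could be set against tumour cells in 2 libraries, where 29 members were higher in tumour cells in both, and Mki67, Ccnb2, Ccna2, Kif11 and Cenpa were lower in tumour cells in both. Against CD8 T cells 30 members were higher in tumour cells in all 5 libraries, and the other 8 were Mki67, Ccnb2, Ccna2, Bub1b, Kif11, Cenpa, Nusap1 and Rrm2. CD8 T cells were above macrophages in all 5 libraries for 32 members and above NK cells for 28. Microglia and macrophages had no fixed order, since none of the 38 members was higher in microglia in all 7 libraries. Since a class's level moves with its share of cycling cells, these orders are not separate from the shares above. The counts of members were not taken over all genes, so they cannot be set against a general rate.

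**Figure D3:**
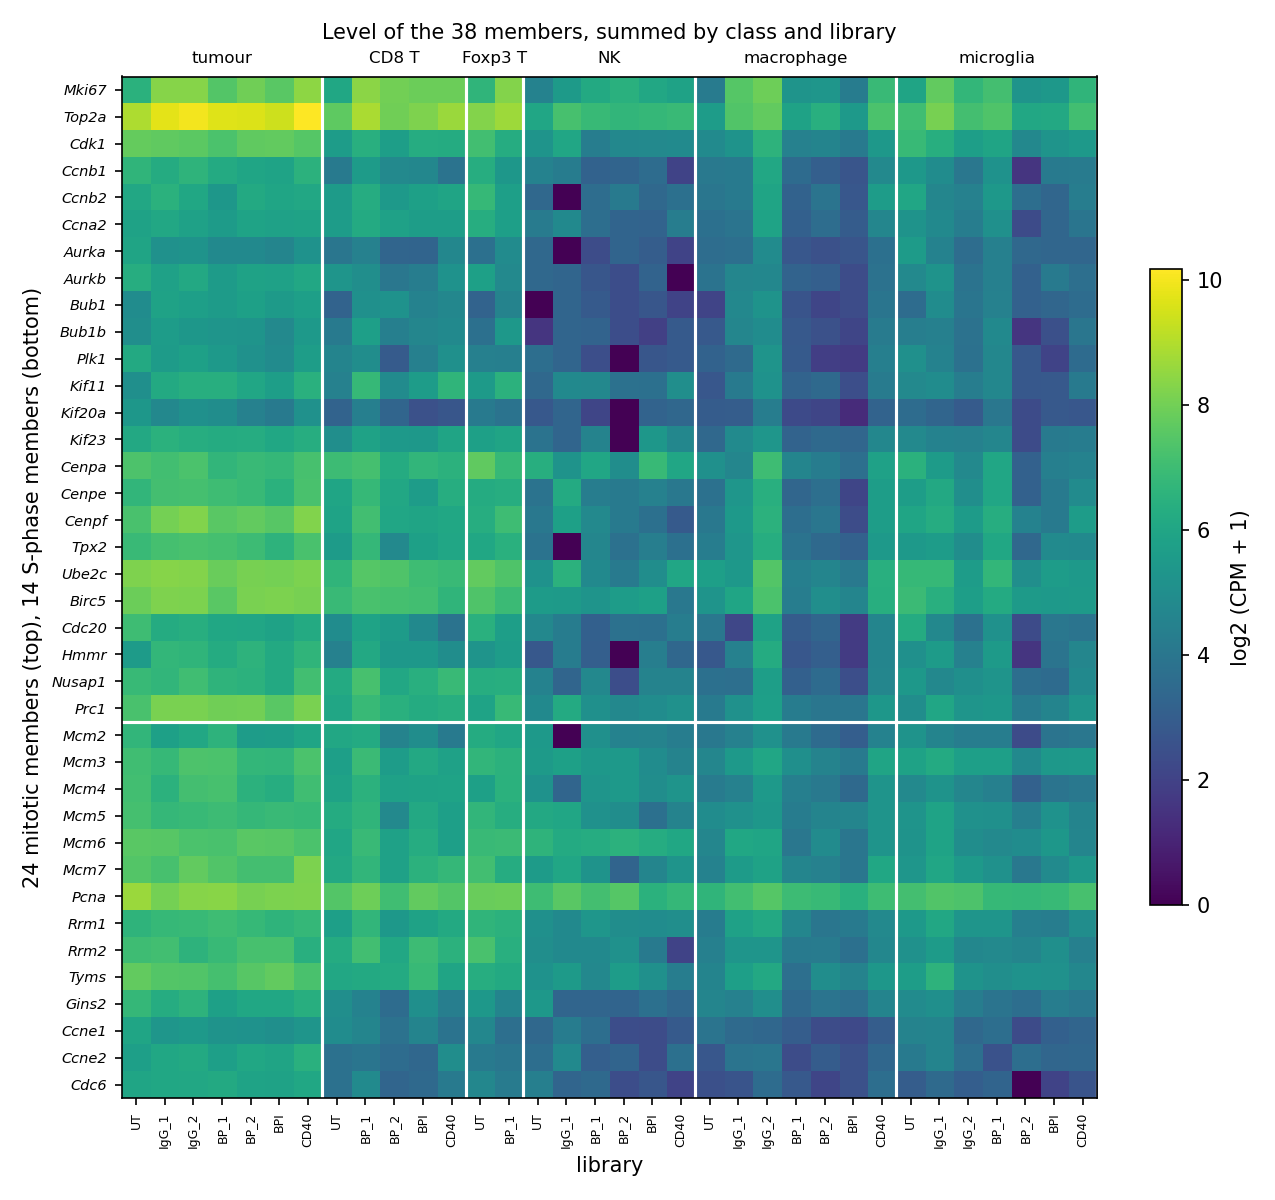
Level of each member (rows) as log2 of CPM plus 1 (colour) in the summed cells of each class and library with 20 or more cells (columns), with the 24 mitotic members above the white line and the 14 S-phase members below it. Tumour columns are the brightest, with Top2a up to 1158 CPM, and single dark cells in the NK and microglia columns are members listed at 0.

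Near-empty droplets of under 100 UMIs, which hold free RNA, also carried the members, with mitotic members at 1984 to 3077 CPM. Each class's free share was estimated from markers it should lack. Summed mitotic members were at 2954 CPM in tumour cells of UT, 3910 and 4145 in IgG, 3182 and 3455 in BP, 2987 in BPI and 4251 in CD40, and free RNA made up 2.8 to 7.5% of this. In macrophages they were at 425 CPM in UT, 910 and 1935 in IgG, 331 and 381 in BP, 225 in BPI and 1028 in CD40. There the free share was 40.6% in UT, 22.4% and 13.6% in IgG, 60.0% and 73.1% in BP, 106% in BPI and 18.7% in CD40, so the macrophage sum did not exceed the free RNA estimate in BPI, and most of it was within that estimate in both BP libraries. In microglia the sum was 1310 CPM in UT, 1441 and 803 in IgG, 1274 and 355 in BP, 497 in BPI and 754 in CD40, with free shares from 9.6% in BP 1 to 99.7% in BP 2. In NK cells the sum was 473 to 803 CPM, with free shares of 47.7% in UT, 11.04% and 59.4% in IgG, 20.5% and 27.4% in BP, 67.5% in BPI and 17.8% in CD40. In CD8 T cells of the 5 libraries with 53 or more cells the free share was 3.3 to 9.5%, and in Foxp3 T cells it was 7.14% in UT and 5.88% in BP 1.

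**Figure D4:**
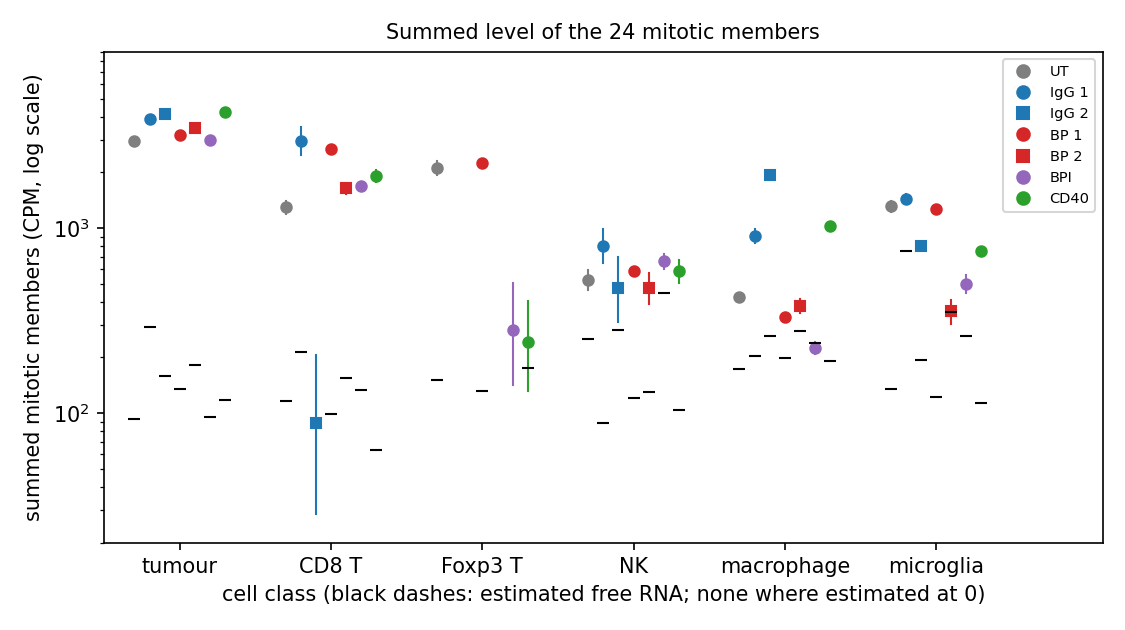
Summed level of the 24 mitotic members (vertical axis, CPM, log scale) by class and library with 10 or more cells; points are libraries with exact 95% Poisson intervals, and black dashes are the level estimated from free RNA. The macrophage point of BPI lies at its dash and that of BP 2 comes next, while those of IgG and CD40 lie furthest above theirs.

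The comparison of BP with IgG asks whether the treatment moved the cycling of each class. With 2 libraries against 2, an exact permutation test cannot go below p = 0.333. The cycling share was lower in BP by 8.16 points in tumour cells (58.7 ± 9.44% against 66.9 ± 8.17%, SD, n = 2 each, exact permutation p = 0.667) and by 7.30 points in macrophages (4.90 ± 1.37% against 12.2 ± 7.56%, p = 0.333). It was higher in BP by 12.8 points in CD8 T cells (21.2 ± 5.34% against 8.33 ± 11.8%, exact permutation p = 0.333). It was also higher by 1.85 points in NK cells, and the difference in microglia was -0.0897 points (exact permutation p = 1 for both). The NK and microglial differences changed sign under several settings, listed with the processing below. IgG and BP did not overlap for macrophages and CD8 T cells, and overlapped for the other 3. That separation depended on the settings. In macrophages it was lost with no doublets removed, where BP 1 was at 14.0% and IgG at 5.80% and 21.9%, with no thinning, where BP 1 was at 49.1% and IgG at 31.5% and 64.9%, and with Mki67 or Top2a alone, where BP 1 was at 8.97% and IgG at 8.22% and 8.77%. In CD8 T cells the difference itself turned to -1.38 points when 2 or more UMIs of all 38 members were asked for, and the separation was lost with no thinning, where IgG 1 was at 41.7% and BP 2 at 29.6%, and without cells that held a tumour-marker UMI, where IgG 1 was at 18.2% of 11 cells and BP 2 at 17.7%. The CD8 T cells also lay in different clusters: 12 of 12 and 12 of 13 of IgG fell in one cluster, where the shares were 16.7% and 0% in IgG and 13.3% and 18.2% in BP and overlapped, while 391 of 497 of BP 1 fell in another. The adjusted p over the 5 classes was 0.833 to 1. The S share differed by 0.716 points in tumour cells, 0.814 in CD8 T cells, 3.32 in NK cells, -2.11 in macrophages and -3.25 in microglia, with exact permutation p-values of 0.333 or more. Foxp3 T cells had under 10 cells in both IgG libraries and gave no comparison.

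The balance of S-phase to mitotic UMIs was higher in BP by 0.95 on the log2 scale in macrophages (-0.10 ± 0.15 against -1.04 ± 0.52, SD, n = 2 each, exact permutation p = 0.333) and by 0.26 in tumour cells (-0.96 ± 0.18 against -1.22 ± 0.05, exact permutation p = 0.333). Both BP libraries were above both IgG libraries in these 2 classes. The ratio is taken over all cells of a class, cycling or not, so it need not reflect the phase of cycling cells. In BP macrophages most of the mitotic sum was within the free RNA estimate given above, and in IgG a smaller part was. The part of free RNA and of cells not cycling in this difference was not tested. In NK cells and microglia the differences were -0.04 and -0.09, with overlapping groups. The NK difference turned positive after thinning, and the microglial one with free RNA subtracted. CD8 T cells gave -1.79, which rests on the small UMI sums of IgG given above.

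Paired by replicate number, the tumour share of BP minus that of IgG was -20.6 points for number 1 and 4.29 for number 2. Another pairing, by a low or a high sum of tumour markers, was added after the data were seen. In it the tumour share of BP 2 minus that of IgG 1 was -7.26 points. That of BP 1 minus IgG 2 was -9.05. These last 2 did not share 1 tumour pattern. Most BP 1 tumour cells lay in clusters of 2608 and 1395 of its cells, and most of IgG 2 in others, of 3197 and 2446. Gfap was at 408 CPM in BP 1 and 117 in IgG 2. Among macrophages the same subtractions gave -2.92 and -11.7 points, and among CD8 T cells 0.725 and 24.9. The exact sign-flip permutation p of the pairing by tumour markers was 0.5 in each of the 3 classes, the smallest that 2 pairs allow. Both macrophage differences are negative under any pairing, since both BP shares lay below both IgG shares, so their agreement adds nothing. The larger rests on the 57 macrophages of IgG 2.

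Member by member, edgeR's quasi-likelihood test on UMIs summed by class and library called none of the 38 in tumour cells for BP against IgG at a Benjamini-Hochberg adjusted p of 0.05 over all genes, where 0 of 20221 genes (0%) were called. None had an unadjusted p under 0.05, where 390 of 20221 genes did, and DESeq2 called none, where it called 0.252% of all genes. All 24 mitotic members had a negative log2 fold change, from -0.58 for Mki67 to -0.12, with a median of -0.26. Of the 14 S-phase members 8 were negative, with a median of -0.03, while 50% of all genes were negative and the median of all genes was 0.00. Without BP 1, 20 of the 24 were negative, with a median of -0.14, against 53.3% of all genes. On TMM-scaled levels (scaled to even out the make-up of the libraries) both BP libraries were below both IgG libraries in 16 members, 13 mitotic and 3 of S phase, against 12.7% of all genes. The CPM levels printed below are not TMM-scaled, so groups that do not overlap on them need not be among these 16.

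The proliferation marker Mki67 stood at 90.7 CPM in UT, 317 and 320 in IgG, 175 and 248 in BP, 190 in BPI and 347 in CD40 in tumour cells. Its macrophage values were 17.8 in UT, 178 and 240 in IgG, 38 and 39.5 in BP, 18.5 in BPI and 119 in CD40. In both classes the IgG and CD40 libraries were high, and BP did not overlap IgG. Top2a, the topoisomerase that untangles sister DNA, was at 485 CPM in tumour cells of UT, 867 and 1012 in IgG, 830 and 805 in BP, 679 in BPI and 1158 in CD40. In macrophages it was at 49.0, 171 and 211, 57.1 and 84.5, 44.5 and 157 CPM in the same order of libraries. UT was lowest for both genes in tumour cells.

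Cdk1, the kinase that drives entry into mitosis, was in tumour cells at 220 CPM in UT, 203 and 193 in IgG, 155 and 208 in BP, 209 in BPI and 177 in CD40, with overlapping groups. Its macrophage levels were 27.9 in UT, 36.7 and 94.7 in IgG, 21.1 and 23.2 in BP, 16.8 in BPI and 42.2 in CD40. Ccnb1, its cyclin B partner, was at 101 CPM in tumour cells of UT, 74.7 and 96.0 in IgG, 73.2 and 61.9 in BP, 58.2 in BPI and 91.7 in CD40. Ccnb1 in macrophages was at 16.2, 17.5 and 66.8, 10.9 and 7.5, 5.5 and 26.6 CPM in that order. IgG 2 alone was far above the rest. Ccna2, cyclin A, was nearly level in tumour cells, at 46.5 to 67.8 CPM, and in macrophages was at 12.6 in UT, 14.0 and 58.9 in IgG, 7.6 and 11.6 in BP, 6.8 in BPI and 24.8 in CD40.

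The mitotic kinases followed. Aurkb, the kinase of the chromosomal passenger complex, was at 80.9 CPM in tumour cells of UT, 55.8 and 68.9 in IgG, 46.7 and 57.3 in BP, 55.2 in BPI and 67.6 in CD40. In macrophages Aurkb was at 13.7, 24.4 and 25.5, 8.3 and 7.5, 4.1 and 13.1 CPM in that order. Both IgG libraries were alike there, unlike for the cyclins. Plk1, the polo kinase, was at 71.1 CPM in tumour cells of UT, 47.0 and 54.7 in IgG, 43.6 and 35.0 in BP, 28.8 in BPI and 49.8 in CD40. Its macrophage values were 8.2, 10.5 and 37.4, 6.4 and 2.7, 2.4 and 19.8 CPM. For both kinases UT was the highest tumour library, the reverse of Mki67 and Top2a.

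Cdc20 and Ube2c serve the anaphase-promoting complex, which tags mitotic proteins for destruction. Cdc20 was at 129 CPM in tumour cells of UT, 74.8 and 82.0 in IgG, 65.4 and 63.6 in BP, 56.8 in BPI and 74.6 in CD40. In macrophages it was at 15.5, 3.5 and 57.3, 6.8 and 8.9, 2.4 and 24.1 CPM, so that IgG 1 lay below both BP libraries. In IgG 1 macrophages Kif20a, at 7.0 CPM, was 4 UMIs, so the lower Cdc20 level there rests on fewer. Ube2c was at 296 CPM in tumour cells of UT, 318 and 313 in IgG, 230.5 and 271 in BP, 262 in BPI and 286 in CD40. Its macrophage values were 52.1, 41.9 and 173, 19.7 and 23.8, 16.4 and 85.8 CPM. BP was below IgG without overlap for Ube2c in both classes. On TMM-scaled levels this held for 12.7% of all genes in tumour cells and 16.0% in macrophages.

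Birc5, the survivin subunit of the passenger complex, was at 239 CPM in tumour cells of UT, 295 and 289 in IgG, 188 and 281 in BP, 285 in BPI and 270 in CD40, and at 37.1, 62.8 and 154, 19.0 and 31.3, 23.9 and 82.2 CPM in macrophages. Hmmr, a spindle protein, was at 47.7 CPM in tumour cells of UT, 107 and 100.0 in IgG, 75.3 and 95.6 in BP, 72.6 in BPI and 99.9 in CD40. In macrophages it was at 6.0, 20.9 and 74.8, 5.9 and 7.5, 2.4 and 23.7 CPM. The highest macrophage library was IgG 2 for all 24 mitotic members, and the lowest was BPI for 18 of them. These counts were not taken over all genes.

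Next came the spindle checkpoint and centromere members. Bub1, the checkpoint kinase, was at 3.3 CPM in macrophages of UT, 26.2 and 36.6 in IgG, 5.2 and 3.4 in BP, 4.1 in BPI and 14.5 in CD40, while its tumour levels ran from 29.9 in UT to 57.8 in IgG 1. Its partner Bub1b was at 24.4 and 30.2 CPM in IgG macrophages and 6.2 and 4.8 in BP. Both IgG libraries were several times above both BP libraries for this pair. Cenpe, a kinetochore motor, was at 12.7 CPM in macrophages of UT, 40.2 and 83.5 in IgG, 9.3 and 12.3 in BP, 3.4 in BPI and 49.97 in CD40. Cenpf, a kinetochore protein, was at 15.7, 43.6 and 91.5, 11.97 and 15.0, 4.1 and 49.3 CPM in that order. In tumour cells Cenpf was at 264 and 301 CPM in IgG and 188 and 211 in BP, without overlap, and was lowest in UT at 151. Cenpa was at 24.4 and 130 CPM in IgG macrophages and 23.48 and 18.4 in BP, so that only IgG 2 stood clear.

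The remaining mitotic members were Ccnb2, the other cyclin B, Aurka, the centrosome kinase, the kinesins Kif11, Kif20a and Kif23, and the spindle proteins Tpx2, Nusap1 and Prc1. In macrophages each had its highest level in IgG 2, from 19.1 CPM for Kif20a to 80.4 for Tpx2. Both BP libraries lay below both IgG libraries for all 8, against 16.0% of all genes on TMM-scaled levels. In tumour cells IgG and BP did not overlap for Aurka, Kif23, Nusap1 and Prc1, and overlapped for Ccnb2, Kif11, Kif20a and Tpx2. On TMM-scaled levels 12.7% of all genes in tumour cells had both BP libraries below both IgG libraries. Kif11 in tumour cells was at 32.5 CPM in UT and 51.6 to 87.4 elsewhere, whereas Aurka was at 60.7 in UT and 24.01 to 36.7 elsewhere.

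Of the S-phase members, Mcm5, a subunit of the replicative helicase, was nearly level in tumour cells, at 143 CPM in UT, 109 and 115 in IgG, 125 and 110 in BP, 118 in BPI and 110 in CD40. In macrophages it was at 29.7, 34.9 and 40.6, 18.5 and 23.2, 23.6 and 37.6 CPM. The sliding clamp Pcna was at 406 CPM in tumour cells of UT, 263 and 318 in IgG, 331 and 272 in BP, 287 in BPI and 293 in CD40. Pcna in macrophages was at 101, 136 and 181, 124 and 115, 87.9 and 128 CPM. As a ratio of highest to lowest library this was the narrowest spread of the members shown. Rrm2 and Tyms, which supply nucleotides, were at 84.2 to 149 and 145 to 213 CPM in tumour cells with overlapping groups. In macrophages Rrm2 was at 20.6, 38.4 and 38.2, 17.5 and 17.7, 12.7 and 25.2 CPM, and Tyms at 23.2, 52.4 and 69.2, 12.2 and 30.7, 22.6 and 40.4. Both IgG libraries were above both BP libraries for each, against 16.0% of all genes on TMM-scaled levels.

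The other helicase subunits Mcm2, Mcm3, Mcm4, Mcm6 and Mcm7, the helicase partner Gins2 and the reductase subunit Rrm1 gave overlapping groups in tumour cells, apart from Gins2, at 77.97 and 94.5 CPM in IgG and 54.5 and 65.6 in BP. In tumour cells 12.7% of all genes lay lower in BP without overlap on TMM-scaled levels. In macrophages Mcm6 was at 24.2 CPM in UT, 66.3 and 62.9 in IgG, 15.4 and 29.3 in BP, 15.0 in BPI and 37.6 in CD40. Rrm1 there was at 18.3, 55.9 and 69.2, 24.6 and 15.0, 17.1 and 26.9 CPM in the same order. Both IgG libraries were alike and above the other 5 for these 2 genes. For all 7 of these members both BP libraries lay below both IgG libraries in macrophages, against 16.0% of all genes on TMM-scaled levels.

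Ccne1 and Ccne2 encode the E cyclins of S-phase entry, and Cdc6 loads the helicase onto origins. In tumour cells Ccne1 was at 61.5 CPM in UT and 33.0 to 43.9 elsewhere, Ccne2 was at 51.9 to 86.7, and Cdc6 was at 56.5 to 71.4. In macrophages Ccne1 was at 14.2, 10.5 and 9.5, 6.9 and 4.1, 3.8 and 7.1 CPM. Macrophage Ccne2 was at 5.7, 14.0 and 15.1, 4.2 and 6.8, 4.8 and 9.6 CPM, and Cdc6 at 4.6, 5.2 and 11.1, 6.2 and 3.4, 4.8 and 11.7. Cdc6 was the only one of these 3 for which IgG and BP macrophages overlapped. Among all genes, 16.0% lay lower in BP macrophages without overlap on TMM-scaled levels.

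In macrophages, in the test of BP against IgG no member passed an adjusted p of 0.05 with edgeR's quasi-likelihood test, where 0 of 11692 genes (0%) did. All 38 members had a negative log2 fold change, against 47.0% of all genes. Without IgG 2 all but Cdc20 did, against 43.0% of all genes. In 29 members, 23 mitotic and 6 of S phase, the unadjusted p was under 0.05 with BP lower, against 3.24% of all genes. Without IgG 2 these were 9 members, 7 mitotic and 2 of S phase, against 0.922% of all genes, and the mitotic median given next became -1.09. On TMM-scaled levels both BP libraries were below both IgG libraries in 35 members, against 16.0% of all genes. The median log2 fold change was -1.96 for mitotic members, from -2.84 for Hmmr to -1.30 for Prc1. It was -0.95 for S-phase members, from -1.55 for Rrm1 to -0.30 for Pcna, and 0.04 for all genes. With no doublets removed the 2 member medians were -1.55 and -0.40. In that setting 20 members had an unadjusted p under 0.05 with BP lower, against 262 of 12048 genes. Mki67 was lower in BP by 2.32 ± 0.38 log2 units (± SE, edgeR adjusted p = 0.242), and Bub1, a spindle checkpoint kinase, by 2.74 ± 0.48 (edgeR adjusted p = 0.242). The smallest adjusted p of all members was 0.242, and 960 genes had an unadjusted p under 0.05. Hmmr was lower by 2.84 ± 0.63 (edgeR adjusted p = 0.298) and Rrm1, the large subunit of ribonucleotide reductase, by 1.55 ± 0.37 (edgeR adjusted p = 0.303). Pcna was at -0.30 ± 0.37 (edgeR adjusted p = 0.914).

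The count of members called depended on the tool and the libraries. DESeq2 called 6 of 38 (Mki67, Bub1, Hmmr, Cenpe, Cenpf and Tpx2), all lower in BP, where it called 0.984% of all genes. Without the filter on low counts edgeR called 17 (2.11% of all genes). Leaving out BP 2 gave 14 (4.93%) and leaving out IgG 1 gave 8 (0.942%), while leaving out BP 1 or IgG 2 gave 0. With the replicate number as a block 7 were called (1.55%), and with crossed numbers 16 (2.96%). Without IgG 2, Cdc20 turned to 1.20 on the log2 scale, which rests on the few Cdc20 UMIs of IgG 1. Mki67 stayed negative without each library in turn, at -2.51 to -2.12.

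Other values moved with the macrophage result, and their part in it was not tested. Different clusters held most of the class in the 2 groups: the cluster led by Ms4a4c, Cxcl2 and Lyz2 held 61 of 73 and 42 of 57 macrophages in IgG and 207 of 229 in BP 2, while 1377 of 1773 in BP 1 fell in a cluster led by Ccl8, Ccl24, Chil3 and Arg1 that was nearly absent elsewhere. Inside the Ms4a4c cluster the cycling share was 8.20% and 23.8% in IgG, 12.5% of 24 cells and 3.38% in BP, 3.48% in UT, 2.29% in BPI and 13.9% in CD40. The 2 highest were the libraries whose cells in that cluster had median depths of 23394.5 and 19850.5 UMIs, against 4743 to 8161 in the other 5. Cycling macrophages carried 148 CPM of the 12 tumour markers, against 74.1 in the rest; in BP 1 the values were 205 and 90.2, and its cycling cells were the shallower, with medians of 5274.5 and 8282 UMIs. In UT, IgG, BP 2, BPI and CD40 the cycling cells were the deeper. A further setting left out cells that held a tumour-marker UMI after thinning. The macrophage share was then 3.61% in UT, 7.04% and 18.2% in IgG and 4.49% and 3.64% in BP. It was 1.94% in BPI and 12.6% in CD40, and both BP libraries were again below both IgG libraries. Tumour cells of IgG 1, BP 2 and BPI themselves carried 450, 416 and 359 CPM of these markers. A thinned tumour cell there would often hold no such UMI, so this filter could miss tumour RNA. It kept 71 of 73 macrophages in IgG 1 and 220 of 229 in BP 2. The UMI sums used by edgeR were not thinned. With free RNA subtracted, the summed mitotic members were at 706 and 1672 CPM in IgG and at 133 and 102 in BP.

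For the single libraries the edgeR contrasts against IgG gave further values, and since they share the IgG libraries they are not independent. In macrophages of BPI all 38 members were negative (50.5% of all genes), 26 had an unadjusted p under 0.05 (3.17% of all genes), and 0 passed the adjusted threshold, as did 0% of all genes. The medians were -2.32 for mitotic and -1.06 for S-phase members. Without IgG 2 the 26 became 9, where 125 of 11817 genes were lower at that p, and the medians became -1.30 and -0.91. In UT macrophages 24 of 24 mitotic and 11 of 14 S-phase members were negative, against 49.4% of all genes, with medians of -1.22 and -0.55, and none passed where 0.123% of all genes did. Without IgG 2, 15 of the 24 mitotic members were negative there, against 44.8% of all genes, with a median of -0.45. Of the 14 S-phase members 9 were then negative, with a median of -0.29. The S-phase median was -0.90 without IgG 1. In CD40 macrophages the medians were -0.45 and -0.31 and none passed (0% of all genes). That direction rests on IgG 2: without it the CD40 medians were 0.21 and -0.01, with 6 of 24 mitotic members negative (23 with it), against 46.2% of all genes (50.6% with it). BPI against BP gave macrophage medians of -0.34 and -0.03, which became -0.92 and -1.01 with no doublets removed.

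**Figure D5:**
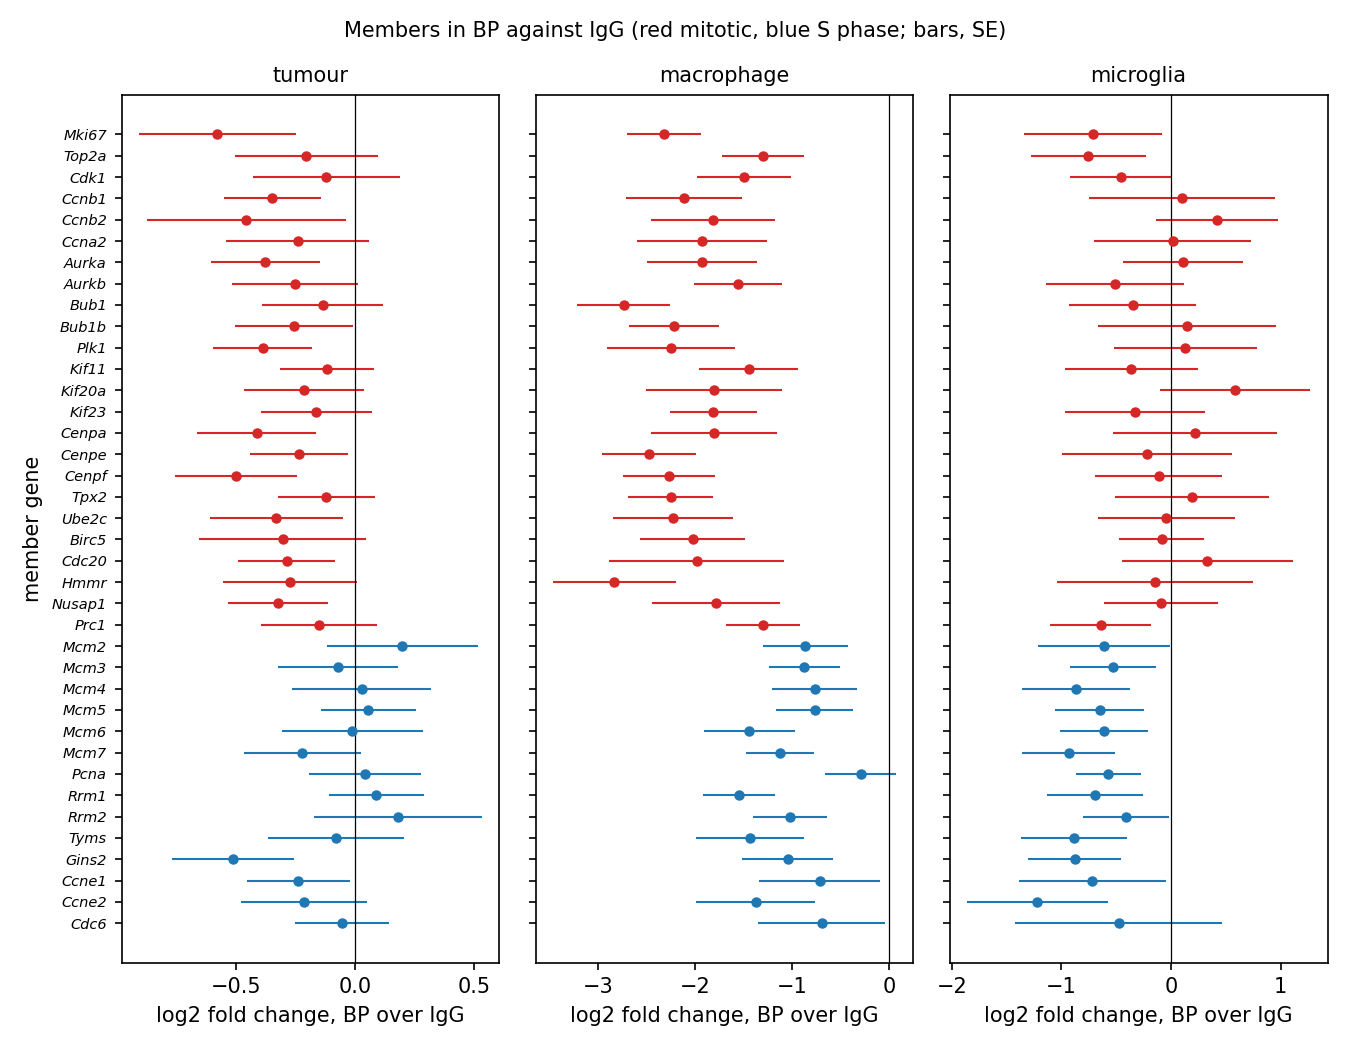
Log2 fold change of BP over IgG (horizontal axis, bars ± SE) for each member (rows) in tumour cells, macrophages and microglia, with mitotic members in red and S-phase members in blue; the horizontal scales differ between panels. All 38 macrophage values and all 24 mitotic tumour values lie below 0, and in microglia all 14 S-phase values do.

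In microglia edgeR called no member for BP against IgG at an adjusted p of 0.05 (0% of 12308 genes). No member had an unadjusted p under 0.05, where 570 genes did, and DESeq2 called none, where it called 0.309% of all genes. All 14 S-phase members were negative with a median of -0.67, and 14 of 24 mitotic members were, with a median of -0.09, against 53.4% of all genes. The 2 BP libraries pulled the mitotic members apart. Without BP 1 all 23 tested were negative, against 52.3% of all genes, with a median of -1.57, and 20 members (15 mitotic and 5 of S phase) had an unadjusted p under 0.05 with BP lower, against 6.11% of all genes. Without BP 2 only 5 of 24 were negative, against 54.4% of all genes, with a median of 0.49. Without IgG 1 only 7 of 24 were, against 6728 of 13222 genes, with a median of 0.31. The S-phase median was -0.32 without IgG 1, -1.10 without IgG 2, -1.13 without BP 1 and -0.41 without BP 2. Both BP libraries were below both IgG libraries for 9 members, all of S phase, against 17.1% of all genes. Mki67 in microglia was at 61.0 CPM in UT, 212 and 105 in IgG, 141 and 37.5 in BP, 42.0 in BPI and 101 in CD40, with overlapping groups. Pcna was at 141 in UT, 172 and 161 in IgG, 112 and 109 in BP, 115 in BPI and 147 in CD40, with BP below IgG. Cdk1 in microglia was at 116 CPM in UT, 81.4 and 50.6 in IgG, 61.4 and 25.7 in BP, 37.3 in BPI and 44.1 in CD40. Top2a was at 132, 274 and 141, 165 and 67.1, 70.0 and 136 CPM in that order. BP 2 was the lowest microglial library for 18 of 24 mitotic and 9 of 14 S-phase members, and IgG 1 the highest for 13 S-phase members. Such counts were not taken over all genes. Mcm7 was at 63.3 and 44.0 CPM in IgG and 34.3 and 15.8 in BP, without overlap. No member was called in BPI, CD40 or UT against IgG, or in BPI against BP, with 0% of all genes called in each.

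Microglia were not uniform. A cluster led by P2ry12, Gpr34, Cx3cr1 and Tmem119, genes of the resting state, had cycling shares of 1.47 to 5.83% in the 5 libraries where it held 93 or more cells. One led by Spp1, Ccl3, Tnf and Trem2 had 38.6% of 44 cells in IgG 1, 17.0% of 230 in IgG 2, 13.1% of 328 in CD40, 8.05% of 87 in BPI, and 6 of 13 and 1 of 13 cells in UT and BP 2. Another, led by Cd36, C1qc and Cd83, held most microglia of BP 1, at 15.7% of 217 cells, and 8.82% of 34 in UT. In microglia of BP 1 the 8 microglia markers summed to 4855 CPM, against 8687 to 12840 in the other libraries. In IgG 1, IgG 2, BPI, CD40 and BP 2 the Spp1 cluster had a higher share than the P2ry12 cluster, and deeper cells. The 95% intervals of these 2 shares overlapped in BPI and BP 2. Over the class, cycling microglia carried 103 CPM of the 12 tumour markers at a median of 18349 UMIs, against 49.1 CPM and 6748 UMIs in the rest, and the part of either in these shares was not tested. In BP 2 and BPI the cycling microglia had a lower tumour-marker CPM than the rest. The clusters hold different shares of the class in each library, so the class-wide shares of BP 1 and BP 2, 16.7% and 5.63%, come from different clusters.

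For T and NK cells IgG held too few cells for the member test in CD8 T cells, and BPI was compared with BP. No member passed where edgeR called 0.140% of 8558 genes. Mki67 in CD8 T cells was at 66.0 CPM in UT, 336 and 254 in BP and 235 in both BPI and CD40, and Top2a at 200 in UT, 469 and 250 in BP, 298 in BPI and 398 in CD40. UT was lowest for both. Cdk1 there was at 49.0 CPM in UT, 85.2 and 51.2 in BP, 78.1 in BPI and 74.7 in CD40. Rrm2, one of the 8 members for which tumour cells were not always above CD8 T cells, was at 76.7 in UT, 136 and 66.8 in BP, 126 in BPI and 91.3 in CD40. In Foxp3 T cells of UT and BP 1, Mki67 was at 100.1 and 313 CPM, Top2a at 309 and 412, Cdk1 at 138 and 77.05, and Pcna at 229 and 234. Mki67 in NK cells was at 21.7 CPM in UT, 45.6 in IgG 1, 70.9 and 86.8 in BP, 67.6 in BPI and 57.0 in CD40, below the CD8 T cells of the same library in each of the 5 shared. Cenpa in NK cells was at 82.9, 36.5, 64.2 and 30.4, 114 and 63.3 CPM in that order of libraries. Nearly all CD8 T cells fell in 2 clusters, and the one led by Ccl1, Trbc2 and Cd3g held 391 of 497 cells in BP 1, with 28.1% cycling (23.7 to 32.9). The other, whose leading genes included Cd3d and Trbc2, had 13.3% in BP 1, 18.2% in BP 2, 21.9% in BPI and 17.3% in CD40. In UT 7 of 30 cells were cycling in the first cluster and 0 of 22 in the other. IgG 2 held 16 NK cells, under the minimum for summed counts, so the NK member tests use IgG 1 alone for IgG. Each NK contrast that follows therefore has an unreplicated side, so its lack of called members decides nothing. In NK cells 21 members had enough counts in 4 contrasts (BP, BPI or CD40 with IgG, and BPI with BP), and none passed in any of them, nor did any among 27 in UT against IgG (0% of all genes in each).

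Tumour clusters led by Gfap had fewer cycling cells than the rest: one, also led by A2m and Trf, had 24.1% of 646 cells in BP 1, 15.8% of 57 in UT, 3.08% of 65 in CD40 and 0 of 40 in IgG 2, and another, also led by Igfbp5 and B3galt2, had 7.44% of 121 in IgG 2 and 7.88% of 165 in CD40. The other tumour clusters lay at 46.1 to 77.6% where a library gave them 50 or more cells. These values describe the clusters and carry no test. No member was called in tumour cells of BPI, CD40 or UT against IgG, or of BPI against BP (0% of all genes in each). In BPI 20 of 24 mitotic members were negative, with a median of -0.33, against 54.9% of all genes. In UT 16 of the 24 mitotic members were negative against IgG, with a median of -0.27, where 10503 of 20006 genes were negative. Single members differed in direction, though UT is 1 library and edgeR called none of those named here. Mki67 was lower than in IgG by 1.85 ± 0.44 log2 units (± SE) and Kif11, the spindle motor, by 1.29 ± 0.26. Cdc20 was higher by 0.68 ± 0.25 and Aurka by 0.73 ± 0.27. With DESeq2 the share of members called was near that of all genes, so it shows nothing particular to the members.

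The make-up of the 2 sums also differed between classes, as a mean over libraries. Top2a gave 23.2 ± 3.49% (SD) of mitotic UMIs in tumour cells and 15.8 to 18% in the other 5 classes, and Mki67 gave 6.59 ± 1.82% in tumour cells and 9.34 to 11.9% elsewhere. Pcna gave 17.5 ± 1.46% of S-phase UMIs in tumour cells, 29.9 ± 5.70% in macrophages and 28.5 ± 4.86% in microglia. Cdc6 gave 3.65 ± 0.33% in tumour cells and 1.13 to 1.83% elsewhere. Cenpa, the histone variant of centromeres, gave 10.95 ± 5.00% of mitotic UMIs in NK cells and 3.79 ± 0.75% in tumour cells.

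A list of 71 other cell-cycle genes, 25 regulators of G1 and S entry, 19 of S phase and 27 mitotic, went the same way in macrophages for BP against IgG: 63 of the 70 tested were negative (47.0% of all genes), with a median of -1.10, and 25 had an unadjusted p under 0.05 with BP lower (3.24% of all genes; 9 without IgG 2), while none passed the adjusted threshold. In each class the D-type cyclin and the inhibitor with the highest median level are given, over libraries with 20 or more cells. Tumour cells had Ccnd3 at a median of 40.5 CPM and Cdkn1a, the p21 inhibitor, at 401. Macrophages had Ccnd1 at 134 and Cdkn1a at 333, and microglia Ccnd3 at 131 and Cdkn1a at 197. CD8 T cells had Ccnd3 at 290 and Cdkn1b, the p27 inhibitor, at 60.8, NK cells Ccnd3 at 468 and Cdkn1b at 65.9, and Foxp3 T cells Ccnd2 at 787 and Cdkn1a at 89.0 in 2 libraries. In macrophages Cdkn1a was at 333 in UT, 693 and 119 in IgG, 320 and 884 in BP, 797 in BPI and 175 in CD40, lowest in the 2 libraries with the highest cycling share.

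Across the 34 sums of a class in a library with 20 or more cells, single members followed the mitotic sum on a log2 scale with Pearson's r from 0.665 for Mcm2 to 0.968 for Top2a. Outside the lists the 3 genes that followed it most closely were Paics (r = 0.927), Rangap1 (r = 0.915) and Pclaf (r = 0.905). These sums share libraries, depth and free RNA, and the mitotic members are part of their own sum, so the values describe a pattern and carry no test.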

How the data were processed

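UMI counts per gene and barcode were measured in 7 whole-tumour libraries with the 10x 3′ V2 kit, per the labels' protocols. The deposited UMI counts are whole numbers with no normalization, on mm10; the file headers name Cell Ranger 4, while the submitters' processing notes name Cell Ranger 7.0.1. The matrices list 713553 to 2310016 barcodes, near-empty ones included.

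A barcode was kept with 1000 or more UMIs, 500 or more genes and mitochondrial UMIs of 15% or less, and the highest Scrublet scores were removed as doublets at 0.8% per 1000 cells (4.50 to 8.44% of a library). Cells were clustered in scanpy 1.11.5 (2000 variable genes without cell-cycle genes, 30 components, 15 neighbours, Leiden resolution 1). A cluster took a class name with 3 or more markers raised, at 20 CPM or more and 4 or more times the lower-quartile cluster plus 5 CPM. CD8 T cells held a Cd8a or Cd8b1 UMI and none of Cd4 or Foxp3, and Foxp3 T cells held a Foxp3 UMI and none of Cd8a or Cd8b1. These naming rules and gates were set after the data were seen. Shares needed 10 cells and summed counts 20. Low-UMI tumour-like clusters of 2555 and 1762 cells stayed unnamed and entered no class.

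Summed counts were tested with edgeR 4.0.16 (TMM, filterByExpr, quasi-likelihood) over all genes, with DESeq2 1.42.0 as the alternative. Shares and balances were tested by exact permutation, two-sided, with Benjamini-Hochberg adjustment. The tests were checked on simulated data. Positions came from the GENCODE vM21 annotation and promoters from RefSeq. Values in every library were given for 18 members chosen by role; Bub1, Cenpe, Cenpf, Mcm6 and Rrm1 were added in macrophages after their values were seen. The members, gene lists and tests were chosen with earlier results of these data known. The alternatives changed the thinning, the count that defines cycling, the doublet step, the clustering genes, the T cell gates, the free RNA, the tool, scaling and filter, the block and the libraries.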

Additional observations from a re-analysis of the deposited data

Results flagged for a closer look

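Between BP and IgG the cycling share was higher in BP in CD8 T cells and lower in BP in macrophages, with both BP libraries on 1 side of both IgG libraries in each class. The CD8 T cell change minus the macrophage change was 20.1 percentage points. This pair of classes was picked because they separated in opposite directions. That choice fixes its exact permutation p at 0.333, so the p decides nothing. The CD8 T cell difference itself turned to -1.38 points when 2 or more UMIs of all 38 members were asked for. The separation in macrophages was lost with no doublets removed (14.0% in BP 1, 5.80% in IgG 1) and inside the cluster led by Ms4a4c (8.20% and 23.8% in IgG, 12.5% and 3.38% in BP), while 1377 of 1773 macrophages of BP 1 lay in another cluster. That in CD8 T cells was lost without cells that held a tumour-marker UMI (17.7% in BP 2, 18.2% in IgG 1). The CD8 T cell side rests on 12 and 13 cells in IgG. All but 1 of these fell in a cluster where the shares of IgG (16.7% and 0%) and BP (13.3% and 18.2%) overlapped. The cause was not tested.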

How the results depend on the processing

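The BP minus IgG cycling share kept its sign in tumour cells and macrophages under every setting run, and differences turned in the other 3 classes. In NK cells (1.85 points) it became -9.42 thinned to 2000 UMIs, -16.6 with no thinning, -16.4 with 1 or more mitotic UMIs, -4.80 with all 38 members, -12.3 with Mki67 or Top2a alone, -4.18 with no doublets removed and -8.65 with cell-cycle genes kept in clustering. In microglia (-0.0897) it became 1.08 thinned to 2000 UMIs, 4.55 with no thinning, 0.155 with no doublets removed and 0.700 without cells that held a tumour-marker UMI. In CD8 T cells it became -1.38 with all 38 members. The CD8 T minus NK difference became -1.44 with 1 or more mitotic UMIs. With all 38 members 6 class pairs passed, and tumour cells exceeded CD8 T cells by 56.2 points, NK cells by 70.3, macrophages by 73.1 and microglia by 70.1, and CD8 T cells exceeded NK cells by 14.1. The NK balance became 1.01 after thinning and the microglial balance 2.80 with free RNA subtracted. In BP 2 nearly all of the microglial mitotic sum lay within the free RNA estimate, so little was left after subtraction. The causes were not tested. With no doublets removed the tumour clusters of IgG 1, BP 2 and BPI raised 1 of 12 markers and went unnamed, so that setting has 138, 193 and 182 tumour cells there.

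Leaving out 1 IgG or BP library at a time gave cycling differences of -14.8 to -1.48 points in tumour cells, 4.50 to 21.2 in CD8 T cells, -2.80 to 6.50 in NK cells, -12.6 to -1.95 in macrophages and -5.65 to 5.47 in microglia. The balance differences ranged over 0.13 to 0.38, -4.79 to 1.22, -0.50 to 0.41, 0.58 to 1.31 and -0.79 to 0.61 in the same order. With 1 library of 7 left out the class differences stayed at 40.9 to 46.5 points for tumour minus CD8 T cells, 53.0 to 56.6 for NK cells, 50.3 to 54.0 for macrophages and 47.5 to 52.3 for microglia, and no pair passed.

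Members called in macrophages for BP against IgG numbered 0 in the edgeR test reported, 6 with DESeq2, 17 with no filter on low counts and 0 to 14 with a library left out. For BPI against IgG they numbered 4 with DESeq2 (1.68% of all genes), 10 with no filter (2.86%) and 0 to 9 with a library left out (9 without BP 2, 4.62%). For UT against IgG they numbered 1 with DESeq2 (1.68%), 4 with no filter (2.99%) and 0 to 6 with a library left out (6 without BP 2, 5.99%). In microglia UT against IgG gave 1 with no filter (1.76%) and 0 to 4 with a library left out (4 without BP 2, 4.39%), and BPI against BP gave 0 to 1 (1 without BP 2, 3.25%). In tumour cells UT against IgG gave 2 with DESeq2 (4%) and 1 with no doublets removed (2.35%). Where a group keeps 1 library, it is assumed to vary like the others. In macrophages, Cdc6 turned to 0.28 on the log2 scale with no doublets removed and Cdc20 ranged from -2.78 to 1.20 with a library left out. The 1.20, without IgG 2, rests on the few Cdc20 UMIs of IgG 1.

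The replicate numbers are shared by IgG and BP but nothing says that they pair the libraries, and the correlation of same-numbered deviations was -0.71 in tumour cells, -0.22 in macrophages and 0.03 in microglia. With the replicate block, 7 members were called in macrophages (1.55% of all genes) and 0 in tumour cells and microglia. With crossed numbers, a pairing added after the data were seen, 16 (2.96% of all genes), 0 and 0 were called. The exact sign-flip p of the same-numbered cycling differences was 0.5 to 1 in the 5 classes.

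Cell numbers limit the immune classes: IgG 1 and IgG 2 had 12 and 13 CD8 T cells and 73 and 57 macrophages, and 2 libraries a group cannot give an exact p under 0.333.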

Other observations

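Cells of the unnamed clusters entered no class, and 38.3 to 71.0% of them in a library were cycling by the same count. Their largest clusters had medians of 1640 and 2020 UMIs and were led by AY036118 and Cdk8, and by Msmp and Ube2l6.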
